A study of Mus musculus with 8 samples.

Results

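The genes described here are Ret and the 4 GDNF family co-receptors Gfra1, Gfra2, Gfra3 and Gfra4, taken by symbol as the receptor complex for the GDNF family of ligands. They are 5 of the 55414 genes listed for each library, and all 5 passed the expression filter that left 17721 genes for testing. Transcript levels were measured by RNA-seq of poly(A) RNA from the dorsal root ganglia (DRG) of E18.5 mouse embryos, which contain the cell bodies of somatosensory neurons and the glia around them. The 4 AD1 OE libraries came from embryos of the genotype AdvillinCre/+;Rosa26Dach1/+, and the 4 Control libraries from Advillin+/+;Rosa26Dach1/+ embryos. All 8 therefore carried the Rosa26 allele, in which Dach1, a transcriptional co-regulator, and EGFP lie behind a stop cassette, and only AD1 OE embryos also carried the Cre. The Cre sits in the Advillin gene and acts in sensory neurons, so the glia, vessels and connective tissue of the same ganglia are not its target and still contribute RNA to each library. The comparison asked how transcripts in the ganglion differ when Dach1, which normally becomes restricted to few neuron classes, is present broadly in the sensory neurons at this age. Per the study, AD1 OE embryos restrict Dach1 as usual at first and express it broadly again only later, so the comparison concerns late re-expression.

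Ret is a receptor tyrosine kinase that cannot bind its ligands alone. Each ligand binds a GPI-anchored Gfra protein, and the pair then brings Ret molecules together: GDNF acts mainly through Gfra1, neurturin through Gfra2, artemin through Gfra3 and persephin through Gfra4. In sensory ganglia Ret marks non-peptidergic nociceptors, C-fibre low-threshold mechanoreceptors and an early group of rapidly adapting mechanoreceptors, Gfra2 is known from the same classes, and Gfra3 is typical of peptidergic nociceptors.

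Gfra1 and Gfra2 are related genes, so the stretch over which their coding sequences are most alike is shown, because a sequenced fragment could be assigned to the wrong gene only where they match. The capitals mark the longest run of identical bases, and the lower case bases at the ends are the first that differ. The sequences are from GENCODE M21 transcripts on GRCm38, an older build than that used for the counts.
Gfra2, chr14:70896005-70896034, plus strand, coding bases 274 to 303: gACTGCCGCTGCAAGCGGGGCATGAAGAAg
Gfra1, chr19:58453213-58453242, minus strand, coding bases 256 to 285: aACTGCCGCTGCAAGCGGGGCATGAAGAAa
This run of 28 bases was the longest that the coding sequences of Gfra1 and Gfra2 shared, and over 1340 aligned bases the coding sequences were 63.7% identical. Gfra4 was 61.8% identical to Gfra2 with a longest shared run of 12 bases, and 59.5% identical to Gfra1 with a longest run of 11 bases.

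Gfra2 fell in AD1 OE ganglia to 66.7% of its Control level, and it was the only one of the 5 members that passed the thresholds. Ret itself was at 92.1% of the Control level, Gfra3 at 92.3%, Gfra4 at 92.5% and Gfra1 at 98.5%, and none of these differences passed. A gene was called when its adjusted p in edgeR's quasi-likelihood test was under 0.005 and its absolute log2 fold change was over 0.25, and this rule picked out 2.57% of all tested genes, of which those lower in AD1 OE made up 1.78% and those higher 0.784% of the tested genes. The member count was thus 1 of 5 lower and 0 of 5 higher. All 5 fold changes were below 0, with a median of -0.12 on the log2 scale against 0.0018 over all tested genes.

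Gfra2, the neurturin co-receptor (ENSMUSG00000022103, chromosome 14), measured 59.7, 55.8, 70.0 and 56.4 CPM (counts scaled to library size, with TMM factors) in AD1 OE replicates 1 to 4. In Control replicates 1 to 4 it measured 97.4, 91.0, 88.8 and 85.9 CPM. Every AD1 OE library lay below every Control library, and the highest AD1 OE value, in replicate 3, was 15.9 CPM below the lowest Control value. The means were 60.5 ± 6.57 in AD1 OE and 90.8 ± 4.87 CPM in Control (SD, n = 4 each). The log2 fold change was -0.58 ± 0.07 (SE), with a 95% interval from -0.73 to -0.44 and an adjusted p of 0.00023 by edgeR's quasi-likelihood test. Among the 316 genes called lower, Gfra2 was number 161 by the size of its fold change, so its decrease was close to the middle of that group. Leaving out each library in turn gave log2 fold changes from -0.65 to -0.55 with adjusted p from 1.77e-05 to 0.00138, and all 8 of these fits called Gfra2 lower.

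Ret (ENSMUSG00000030110, chromosome 6), the signalling kinase shared by the co-receptors, measured 682, 670, 661 and 686 CPM in the AD1 OE libraries. The Control libraries gave 719, 791, 698 and 723 CPM. The groups did not overlap, but the lowest Control value was only 11.7 CPM above the highest AD1 OE value. Groups that do not overlap were found for 13.0% of all tested genes. The means were 674.9 ± 11.2 and 733 ± 40.5 CPM, and the log2 fold change of -0.12 had a 95% interval from -0.22 to -0.02 and an adjusted p of 0.199 in edgeR. The interval leaves the Ret level in AD1 OE between 85.7% and 99% of Control, whereas the interval of Gfra2 runs from 60.2% to 74%; the difference between the 2 genes was not tested. In bulk tissue fewer Ret-expressing cells and less Ret RNA per cell cannot be told apart, and the same holds for each gene here.

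**Figure D1:**
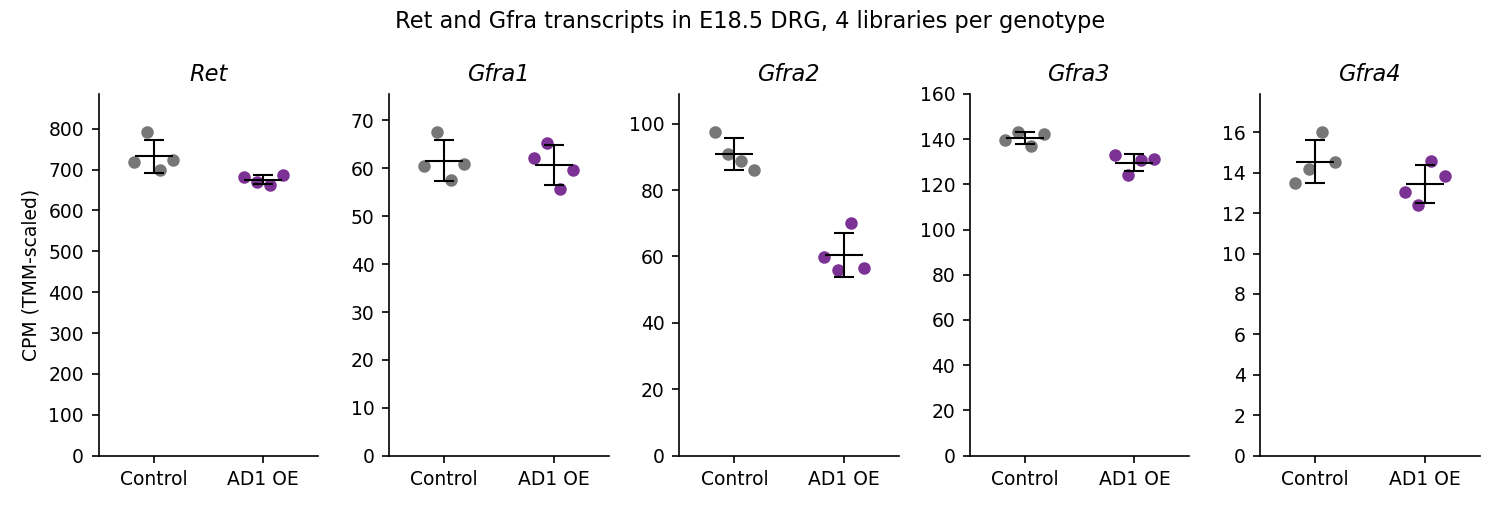
CPM of Ret and Gfra1 to Gfra4 in each library (points) with the mean and SD of the 4 libraries per group (bars), each panel with its own axis from 0. The Gfra2 values of AD1 OE lie between 55.8 and 70.0 CPM and those of Control between 85.9 and 97.4 CPM, while the groups of Gfra1 and Gfra4 overlap.

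Gfra3 (ENSMUSG00000024366, chromosome 18), the artemin co-receptor, measured 133, 124, 131 and 131 in AD1 OE and 139.5, 143, 137 and 142 CPM in Control. The groups did not overlap, with 4.2 CPM between the nearest libraries. The means of 129.6 ± 3.93 and 140.4 ± 2.69 CPM gave a log2 fold change of -0.12 (95% interval -0.19 to -0.04) and an adjusted p of 0.0629 in edgeR. Its coefficient of variation was 3.01% in AD1 OE, where that of Ret was lower at 1.66%, and 1.93% in Control, the lowest of the 5 members there. Its decrease was also below the fold limit. DESeq2 gave it an adjusted p of 0.042, which misses the threshold as well.

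Gfra1 (ENSMUSG00000025089, chromosome 19), the GDNF co-receptor, measured 62.1, 65.4, 55.7 and 59.7 in AD1 OE and 60.4, 67.5, 57.7 and 61.0 CPM in Control. The values were interleaved, and the means were 60.7 ± 4.08 and 61.6 ± 4.18 CPM. The log2 fold change of -0.02 had a 95% interval from -0.15 to 0.11 and an adjusted p of 0.887 in edgeR, so changes beyond 89.9% or 108% of the Control level lie outside the interval. Its sign turned without AD1 OE replicate 3 (0.024) and without Control replicate 2 (0.024). In the annotation 7.6% of the Gfra1 exon sequence, 416 bases, overlaps the gene Gm16277 on the opposite strand, and because it is not stated whether the counting used the strand, the reads there cannot be assigned with certainty.

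Gfra4 (ENSMUSG00000027316, chromosome 2), the persephin co-receptor, was the lowest of the family, at 13.0, 12.4, 14.6 and 13.8 in AD1 OE and 13.5, 14.2, 16.0 and 14.5 CPM in Control. The groups overlapped, and the means were 13.5 ± 0.948 and 14.6 ± 1.05 CPM. The log2 fold change of -0.11 had a 95% interval from -0.27 to 0.05 and an adjusted p of 0.455 in edgeR. These values rested on 278 to 577 counts per library, against 15045 to 30158 for Ret. An overlap with the microRNA gene Mir6973b covers 3.7% of its exon sequence, whereas no annotated gene shares exon bases with Ret, Gfra2 or Gfra3.

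**Figure D2:**
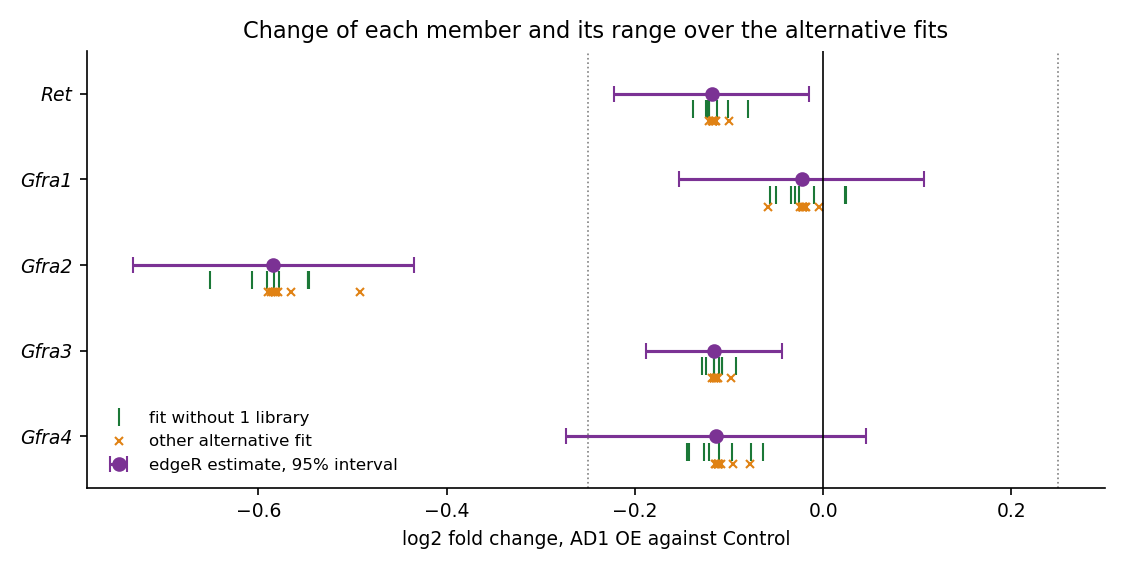
Log2 fold change of each member, AD1 OE against Control (x axis), with its 95% interval (purple), the 8 fits without 1 library (green) and the other alternative fits of all 8 libraries (orange). Dotted lines mark the fold limit of 0.25 in each direction, and the interval of Gfra2, from -0.73 to -0.44, lies wholly past it.

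Of the 17 alternative fits in which all genes were tested anew, 17 called Gfra2 and 0 called any other member. The Gfra2 log2 fold change ranged from -0.65 to -0.49 over these fits, and its adjusted p from 7.92e-14 (DESeq2) to 0.00138. The value nearest 0 came from the fit with sex as a covariate (-0.49, adjusted p = 0.000205). Sex, read from Xist and Y-linked genes, was unevenly spread: AD1 OE held 1 female and 3 male embryos, and Control 3 females and 1 male. Within females, Gfra2 measured 70.0 CPM in the AD1 OE library and 88.8 to 97.4 CPM in Control. Within males, it measured 55.8 to 59.7 CPM in AD1 OE and 85.9 CPM in the Control library. Gfra2 was thus lower in AD1 OE within either sex, by 0.40 and 0.58 on the log2 scale, and with 1 library on one side neither comparison has a test. Ret was lower by 0.15 within females and 0.09 within males, and Gfra3 by 0.10 and 0.14.

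Per kilobase of exon, the scale on which genes can be compared, the order of the 5 levels was the same in all 8 libraries. Ret was highest, at 97.8 to 117 RPKM over the 8 libraries. Gfra3 followed at 62.0 to 71.6 RPKM, then Gfra2 at 15.8 to 27.5, Gfra1 at 10.2 to 12.3 and Gfra4 at 5.72 to 7.39 RPKM. No neighbours in this order overlapped in range. In Control, Gfra2 stood at 25.6 ± 1.38 RPKM and Gfra1 at 11.3 ± 0.764 RPKM. In AD1 OE, Gfra2 at 17.1 ± 1.86 RPKM was nearer to Gfra1 at 11.1 ± 0.746 RPKM, and stayed above it. Taking the longest transcript as the length kept the order, with Gfra2 at 16.1 to 28.0 and Gfra1 at 12 to 14.6 RPKM.

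The make-up of the co-receptor pool differed accordingly. Gfra2 supplied 16.8, 16.5, 19.4 and 16.1% of the 4 Gfra transcripts per kilobase in the AD1 OE libraries, and 24.0, 22.1, 22.5 and 21.4% in Control. Its mean share was 17.2 ± 1.5% against 22.5 ± 1.1%, a difference of -5.31 percentage points with no overlap between groups. Gfra3 made up 65.4 ± 1.0% of the pool in AD1 OE and 61.7 ± 0.79% in Control, again with no overlap, although its own CPM was lower in AD1 OE. Since the shares sum to the whole, the higher Gfra3 share goes with the lower Gfra2 share. The shares of Gfra1 (11.2 ± 1.0 and 9.87 ± 0.52%) and Gfra4 (6.26 ± 0.32 and 5.91 ± 0.52%) overlapped. These are descriptions over the family, with no test.

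Set against Ret, the ratio of Gfra2 to Ret per kilobase was 0.167, 0.159, 0.202 and 0.157 in AD1 OE and 0.259, 0.22, 0.243 and 0.227 in Control. All AD1 OE libraries lay below all Control libraries, at means of 0.172 ± 0.021 and 0.237 ± 0.017. The ratio of Gfra3 to Ret had the same mean in each group, 0.65 ± 0.019 in AD1 OE and 0.65 ± 0.026 in Control. The ratio of Gfra4 was 0.0623 in each group as well, and that of Gfra1 was 0.111 ± 0.0072 and 0.104 ± 0.0014, with overlapping libraries. The summed Gfra level was 0.995 ± 0.036 times that of Ret in AD1 OE and 1.05 ± 0.041 times in Control, and these groups overlapped. The size of this ratio depends on the length used. It was 0.832 and 0.879 with the longest transcript as the length, and 0.392 and 0.42 without exon length, again with overlapping groups.

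**Figure D3:**
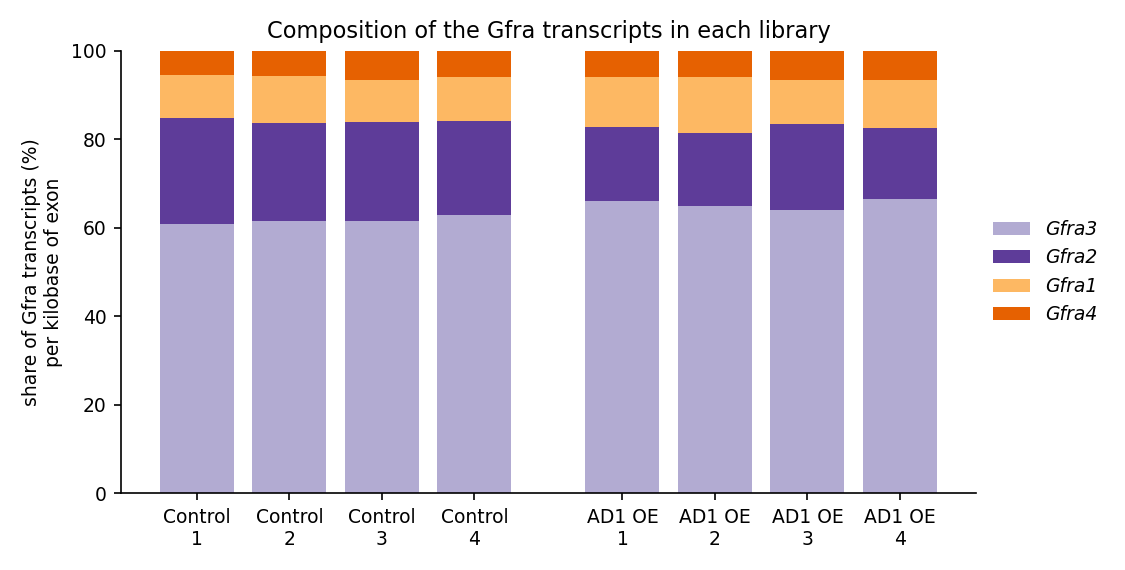
Share of each Gfra gene in the sum of Gfra1 to Gfra4 per kilobase of exon (y axis, percent) in each of the 8 libraries (x axis). The Gfra2 segment spans 21.4 to 24.0% in Control and 16.1 to 19.4% in AD1 OE, and Gfra3 is the largest segment throughout.

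The genes whose levels followed each member most closely over the 8 libraries were searched among 13943 genes with Pearson's r on log2 CPM, as a description only, since a search of this size over 8 libraries returns high values. The closest to Gfra2 were Mafa (r = 0.994), a transcription factor of the early Ret mechanoreceptors, then Trpv2 (0.989), Prdm8 (0.986), Mstn (0.984) and Rpn2 (0.983). Mafa measured 3.28, 2.41, 4.36 and 2.66 in AD1 OE and 11.5, 10.9, 8.33 and 8.39 CPM in Control, a log2 fold change of -1.61 ± 0.17 (SE) with an adjusted p of 1.25e-04 in edgeR. AD1 OE replicate 3 was the highest of its group for both genes, and the likeness of Mafa to Gfra2 remained at r = 0.942 after the group means were taken out. With the group means taken out, the closest to Gfra2 were Myom3 (0.987), Mstn (0.981), Tpst2 (0.981), Chrna1 (0.980) and Chpf (0.979). Myom3, Mstn and Chrna1 are genes of skeletal muscle. AD1 OE replicate 3 had the highest sum of 6 skeletal muscle markers, 622 CPM, against 121 to 213 CPM in the other AD1 OE libraries and 145 to 397 CPM in Control. The highest sums in Control, 397 and 381 CPM, were those of replicates 1 and 2, which also had the highest Gfra2 levels of their group. The Gfra2 log2 fold change was -0.65 without AD1 OE replicate 3, -0.55 without Control replicate 1 and -0.58 without Control replicate 2 (edgeR adjusted p = 1.77e-05, 7.92e-04 and 0.00137). AD1 OE replicate 3 was also the only female of its group. Control replicate 4, with the lowest Gfra2 level and muscle sum of Control (85.9 and 145 CPM), was the only male of its group. Deviations along sex and along muscle RNA therefore cannot be told apart here. The part of muscle RNA in the Gfra2 values was not tested.

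**Figure D4:**
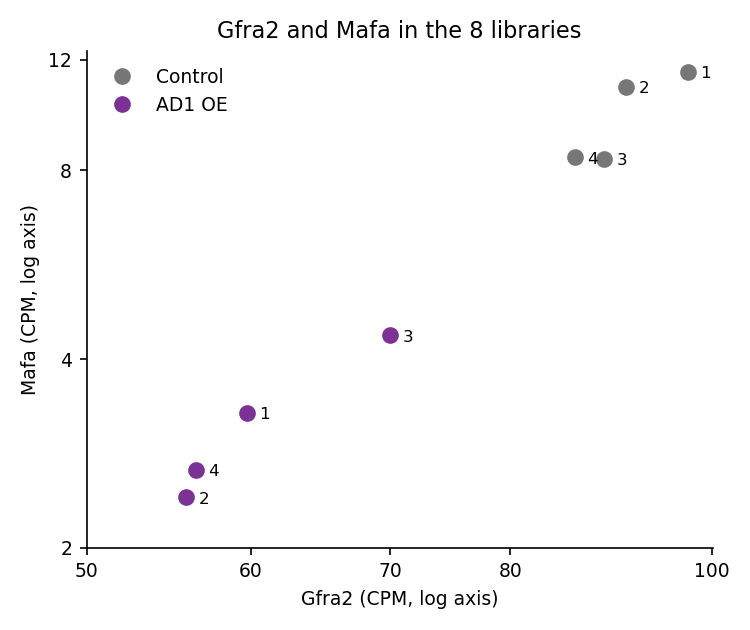
CPM of Gfra2 (x axis) and Mafa (y axis), both on log axes, in the 8 libraries, numbered by replicate. The 4 AD1 OE points lie below and to the left of the 4 Control points, with AD1 OE replicate 3 nearest to Control at 70.0 and 4.36 CPM.

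For Ret, the closest genes were Tmem106a (r = 0.958), Lancl1 (0.958), Pcdhac2 (0.956), Gabarapl2 (0.950) and Nedd4l (0.947), the last a ubiquitin ligase. None of these 5 was called. Gfra3 was closest to Syt5 (0.987), Wfs1 (0.982), Evi5l (0.974), Ptpn6 (0.973) and Pcdh17 (0.971), of which Pcdh17, a protocadherin, was called lower (log2 fold change -0.61, edgeR adjusted p = 8.68e-04). The leading gene was Aatf (0.946) for Gfra1 and Ttc12 (0.976) for Gfra4, and none of the 5 closest to either was called. Among the members themselves, Ret and Gfra1 deviated together most within groups (r = 0.742 after the group means were taken out), and Ret and Gfra2 did not (r = -0.153).

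The GDNF family ligands were close to the detection limit in these ganglia. Gdnf measured 0.585 ± 0.265 CPM in AD1 OE and 0.613 ± 0.136 in Control, and neurturin (Nrtn), the ligand of Gfra2, 0.496 ± 0.164 and 0.4996 ± 0.0991 CPM. Nrtn rested on 8 to 18 counts per library, so that changes between -0.64 and 0.59 on the log2 scale lie within its 95% interval. Artemin (Artn) was at 0.921 ± 0.0804 and 1.04 ± 0.343 CPM and persephin (Pspn) at 0.441 ± 0.104 and 0.494 ± 0.134 CPM. Gdf15 did not pass the filter. None of the 4 ligands tested was called by edgeR or DESeq2, and 0 had an unadjusted p under 0.05. At such low counts only large changes could have passed, so smaller ones may have been missed.

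Among 9 tested surface partners that can stand in for, bind or carry the complex, 1 rose. Sorl1, a sorting receptor of the endosomal system, measured 138 ± 8.02 in AD1 OE and 110.7 ± 7.78 CPM in Control (log2 fold change 0.32, edgeR adjusted p = 0.00323), a call that was lost in 8 of the 11 alternative fits run on the lists. Sdc3, a heparan sulphate proteoglycan that binds GDNF family ligands, measured 212 ± 8.05 and 249 ± 6.8 CPM with no overlap and an adjusted p of 0.00311 in edgeR, but its log2 fold change of -0.23 was within the fold limit. Ncam1, an alternative GDNF receptor, was at 408 ± 14.5 and 390 ± 18.6 CPM (0.06, edgeR adjusted p = 0.511). The median of the 9 was 0.05. Gfral, the receptor of Gdf15, had at most 2 counts in any library and was not tested.

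The lists for the intracellular side of the pathway held no called gene. Of 24 adaptors and effectors, including Shc1, Frs2, Grb2, Gab1, Dok4 and Plcg1, 0 were called by edgeR or DESeq2, 4 had an unadjusted p under 0.05 in edgeR, and the median was -0.02. The smallest adjusted p was that of Shc3, an adaptor of neurons (2.95 ± 0.267 and 3.96 ± 0.438 CPM, log2 fold change -0.41, edgeR adjusted p = 0.0687). Dok6, an adaptor that binds Ret, measured 49.1 ± 2.67 and 51.9 ± 2.42 CPM. Of 15 inhibitors and turnover genes, including the ubiquitin ligase Cbl, the Sprouty genes and the phosphatase Dusp6, edgeR and DESeq2 again called 0, 4 had an unadjusted p under 0.05 in edgeR, and the median was 0.01. Dusp6, a target of ERK signalling, measured 45.7 ± 2.23 and 49.6 ± 2.96 CPM (-0.12, edgeR adjusted p = 0.270). Its unadjusted p of 0.0507 in edgeR ranked 3322 from the smallest among the 17721 tested genes. The counts of genes under 0.05 in each list are to be read against that share.

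Of 17 tested transcription factors tied to the expression of Ret or the Gfra genes, 3 fell and 1 rose. Over all tested genes, 1.78% were called lower and 0.784% higher, and this list was written with earlier results of these data known. Of the 11 alternative fits run on the lists, 8 called 3 genes of this list and 3 called 4. Runx1, which directs the Ret-positive nociceptors, measured 78.2 ± 2.24 in AD1 OE and 81.3 ± 1.06 CPM in Control, with a log2 fold change of -0.06, a 95% interval from -0.13 to 0.02 and an adjusted p of 0.436 in edgeR. Beside Mafa, the genes that fell were Etv1 (92.6 ± 9.20 and 180.9 ± 14.1 CPM, -0.97, edgeR adjusted p = 6.39e-06) and Etv4 (18.3 ± 2.32 and 25.95 ± 2.13 CPM, -0.50, edgeR adjusted p = 0.00494). Both are ETS factors whose expression responds to neurotrophic factors. Etv5, another ETS factor of the list, was not called (55.9 ± 0.504 and 53.0 ± 3.20 CPM, 0.07, edgeR adjusted p = 0.446). Meis2, a homeobox gene of mechanoreceptors, rose from 52.5 ± 2.18 to 68.3 ± 3.69 CPM (0.38, edgeR adjusted p = 4.71e-04). Maf, Klf7, Prdm12, Tlx3, Isl1 and Pou4f1 lay between -0.05 and 0.09 on the log2 scale, with edgeR adjusted p from 0.382 to 0.995.

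The neurotrophin receptors, which mark the other lineages of DRG neurons, were not called by edgeR in any of 4 cases, while DESeq2 called 1. The log2 fold changes were 0.12 for Ntrk2, 0.20 for Ngfr and 0.30 for Ntrk3, with edgeR adjusted p of 0.189, 0.0542 and 0.0171, and 3 of the 4 had an unadjusted p under 0.05. All 4 lay above 0, where all 5 members of the Ret complex lay below it.

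Markers of the neuron classes that carry Ret or a co-receptor did not move one way. The marker lists were written with earlier results of these data known, so their counts of called genes describe the lists only. Over all tested genes, 1.78% were called lower and 0.784% higher. Of 12 tested non-peptidergic nociceptor markers, 6 fell and 1 rose, with a median of -0.515. Of the 11 alternative fits, 1 also called 7 of them, 9 called 6 and the fit without AD1 OE replicate 1 called 5. Mrgprd, a receptor that defines most of these neurons, fell from 87.2 ± 8.82 to 51.1 ± 6.38 CPM (log2 fold change -0.77, edgeR adjusted p = 1.97e-04), and Lpar3, Osmr and Prkcq fell by 1.47, 0.65 and 0.33 on the log2 scale. Mrgpra3 had 3 counts in all in AD1 OE and 15 to 37 counts in each Control library, so no fold is given, and the list median was the same with it at the floor of 3 counts per library. Plxnc1, a semaphorin receptor, rose by 0.55. P2rx3 and Scn11a, expressed broadly in these nociceptors, measured 446 ± 4.5 and 679 ± 42.9 in AD1 OE and 399 ± 23.7 and 587.5 ± 46.1 CPM in Control, with edgeR adjusted p of 0.0642 and 0.0858.

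Of 7 markers of C-fibre low-threshold mechanoreceptors, in which Gfra2 is also known, Tafa4 fell by 0.38 and Th, the rate-limiting enzyme of catecholamine synthesis, rose by 1.60 on the log2 scale. Of 8 markers of the early Ret mechanoreceptors, Mafa and Npy2r fell, the latter from 8.46 ± 1.39 to 2.39 ± 0.617 CPM (-1.80, edgeR adjusted p = 5.29e-05), while Maf (-0.04) had an edgeR adjusted p of 0.803. Of 10 peptidergic and cold nociceptor markers, the class of Gfra3, 5 fell (Calca, Tac1, Trpm8, Adcyap1 and Bmpr1b), by 0.50 to 1.20 on the log2 scale, and 8 of the 11 alternative fits called 4. Gfra3 lay at -0.12 beside them.

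**Figure D5:**
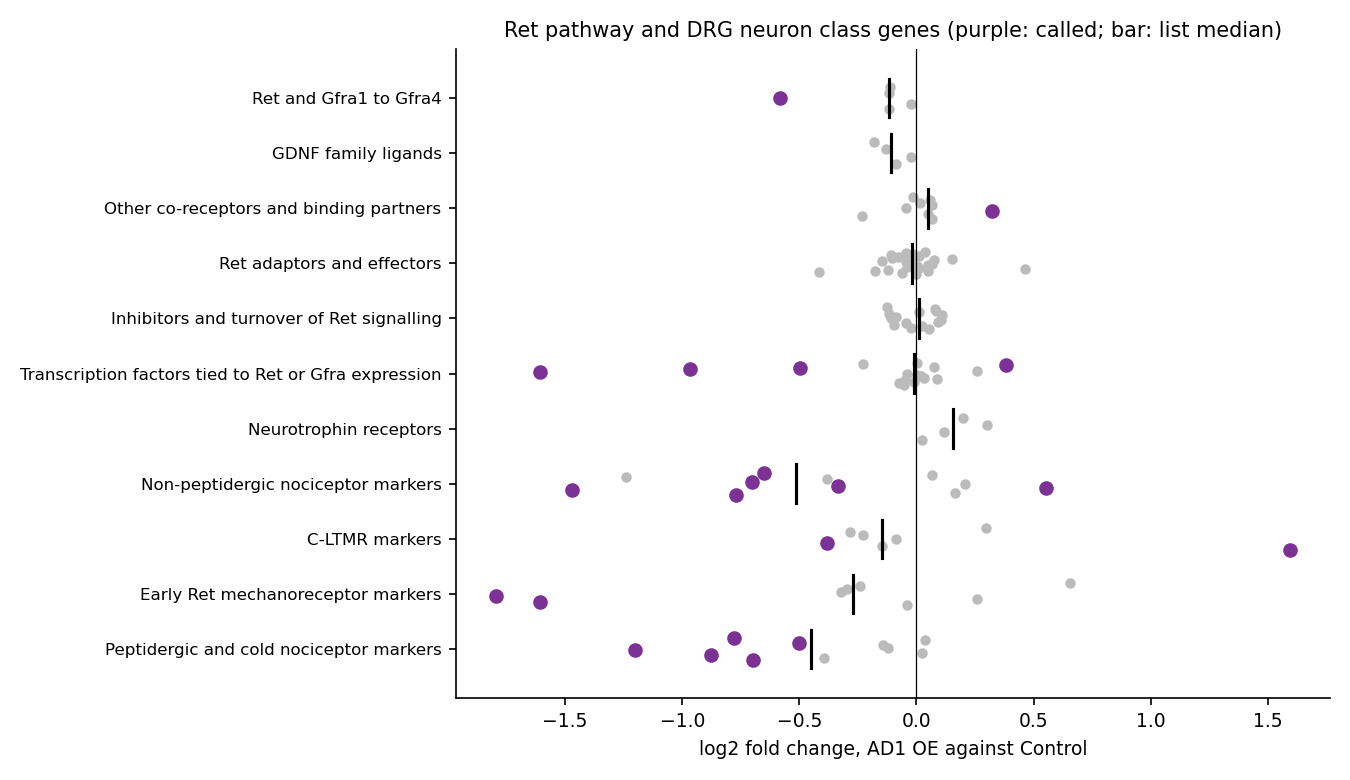
Log2 fold change, AD1 OE against Control (x axis), of the tested genes in each list (y axis), with called genes in purple, the rest in grey and the list median as a black bar. Gfra2 is the called member of the Ret complex, the lists of ligands, adaptors, inhibitors and neurotrophin receptors hold no called gene, and Mrgpra3, with no fold given, is counted in its list's median and not drawn.

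The libraries held 22339059 to 44025625 counts. Dach1 checked the labels, at 91.5 to 102 in AD1 OE and 30.2 to 33.7 CPM in Control. Avil measured 464 ± 12 CPM in AD1 OE, where it carries the Cre allele, and 892 ± 35.1 CPM in Control, where it does not. The Cre allele and the Dach1 that it turns on go together in all AD1 OE libraries. Their parts in any difference therefore cannot be told apart. The markers of the labelled tissue were present. The 10 pan-neuronal genes summed to 8440 to 9220 in AD1 OE and 8874 to 9218 CPM in Control, and 12 glial genes to 1723 to 2144 and 1806 to 2141 CPM. EdgeR and DESeq2 called 0 genes of either list, with an unadjusted p under 0.05 for 3 of each, and their medians were -0.02 and -0.04. The motor neuron marker Mnx1, of a class that also expresses Ret and Gfra1, had at most 4 counts in any library, and Chat at most 10. Other spinal genes were higher in Control replicates 1 and 4 than in the other 6 libraries: Slc6a5 had 121 and 102 counts there against 11 to 41, Olig2 73 and 46 against 6 to 15, and Gad2 42 and 51 against 4 to 17. Their log2 fold changes of -1.42, -1.45 and -1.38 were not called (edgeR adjusted p of 0.283, 0.278 and 0.201). Without Control replicate 1 or 4, Gfra2 was at -0.55 and -0.61 and Gfra1 at -0.03 and -0.03. Of 4 tested sympathetic neuron markers, 1 was called: Chrna3, an acetylcholine receptor subunit, rose by 0.83 (edgeR adjusted p = 0.00178), a call lost in 4 of the 11 alternative fits. Spinal cord and motor neuron markers summed to 159.1 to 182.8 in AD1 OE and 173.7 to 190 CPM in Control, most of it Isl2, which DRG neurons also express, and 0 of 8 tested were called (median -0.565, 1 with an unadjusted p under 0.05). Endothelial, macrophage, fibroblast, skeletal muscle and erythroid lists of 6 genes each held 0 calls by edgeR or DESeq2, with medians of -0.01, -0.14, 0.17, 0.05 and 0.43 and with 0, 1, 4, 0 and 0 genes at an unadjusted p under 0.05. Whether other cells of the dissection had a part in the Gfra2 difference was not tested.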

How the data were processed

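Libraries were prepared from total RNA of E18.5 DRG with a stranded poly(A) kit. The authors aligned reads to GRCm39 with STAR 2.7.8a and deposited raw counts per Ensembl gene made with featureCounts 2.0.1, one table per library, with no pooling. Whether counting used the strand is not given in the sources used here. Groups and replicate numbers (4 and 4 libraries) came from the labels. The study gives 4 embryos per group, and each library was taken as 1 sample. No pair of libraries of a group was alike within sampling noise (chi-square per degree of freedom 4.4 to 12.3 over 12 pairs).

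Symbols, exon lengths and sequences came from GENCODE M21 (GRCm38). Of 55414 IDs, 52133 had a symbol, and all 185 list genes had an ID. The analysis used edgeR 4.0.16 (R 4.3.3) with filterByExpr, TMM, the quasi-likelihood F test on genotype and Benjamini-Hochberg adjustment over 17721 genes, and calls needed an adjusted p below 0.005 with an absolute log2 fold change above 0.25, as in the study. In total 455 genes were called, 316 lower and 139 higher. CPM are given as mean ± SD of 4 libraries, and RPKM are CPM per kilobase of merged exons. Depth was 22339059 to 44025625 counts per library. Reads carried no molecular identifiers, so counts cover counting error only.

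Members and lists were chosen with earlier results of these data known. The text names the members, list genes past the thresholds, other list genes as examples, and the 5 genes most like each member (mean of at least 1 CPM). Some single list genes are not reported here. Alternatives were DESeq2 1.42.0, limma-voom (limma 3.58.1), other scalings, filters and thresholds, robust dispersion, sex, a replicate block and leaving out each library. On simulated counts, edgeR recovered 78% of genes changed by 1 and 56% of those changed by 0.6 on the log2 scale, with 2 false calls among 136.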

Additional observations from a re-analysis of the deposited data

How the results depend on the processing

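Over 21 alternative values of each member's log2 fold change, Ret, Gfra2 and Gfra3 kept their sign. The 4 values of other sign were Gfra1 without AD1 OE replicate 3, without Control replicate 2 and within males (0.032), and Gfra4 within females. The count of 455 called genes became 747 with no expression filter, 1161 at an adjusted p under 0.05 with no fold limit and 129 at an adjusted p under 0.05 with an absolute log2 fold change over 1, and without 1 library it ranged from 289 (without AD1 OE replicate 1) to 420. With the limit of 1 on the log2 fold change, 0 members were called by edgeR, since Gfra2 (-0.58) lay within it. Within females, where AD1 OE has 1 library, the log2 differences were -0.40 for Gfra2, -0.148 for Gfra1 and 0.005 for Gfra4. The Gfra1 value without 1 library ranged from -0.057 to 0.024. Without exon length the Gfra2 share differed by -6.66 percentage points. The cause of these shifts was not tested beyond what each setting removes.

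Replicate numbers recur in the groups but do not pair the libraries: deviations of same-numbered libraries correlated at -0.054 to 0.313, and 1 of 4 correlated best with its own number. With the replicate block, Gfra2 was at -0.59 (edgeR adjusted p = 0.00052), Ret at -0.117 and Gfra3 at -0.116, and 1 member was called. Depth limits the ligands most, at 7 to 45 counts per library for the 4 that were tested, a count range at which only large changes could pass.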

Other observations

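The highest and lowest library of each member in each group were examined for values far from the other 3, and 0 of 10 such groups held one.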
